A study of Mus musculus with 8 samples.

Results

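Repressors that keep germline genes silent in mouse embryonic stem cells (ESCs) were followed through loss of HDAC3 and induction of Xist. The 10 genes were chosen by symbol, for their known function: Mga, Max, E2f6, L3mbtl2, Pcgf6, Ehmt1, Ehmt2, Setdb1, Trim28 and Cbx3. All 10 were present among the 24542 gene symbols of the 8 RNA sequencing (RNA-seq) samples, and all 10 passed the filter on low expression in every comparison. The cells were TX1072, a female hybrid ESC line with 1 Mus musculus castaneus (Cast) and 1 C57BL/6 (B6) genome, in which doxycycline (DOX) switches on the endogenous Xist gene of the B6 X chromosome. Unmodified TX1072 cells (WT) were compared with Hdac3KO cells, which the study derived from TX1072 by CRISPR/Cas9 as independent deletion clones. Each genotype was collected without DOX (0 h) and after 24 h of DOX at 1 µg/ml, with 2 samples in each of the 4 groups. All cells, WT and Hdac3KO, carried the inducible Xist promoter and were grown in serum with LIF and 2i, the inhibitors that hold ESCs in the naive state. The study describes its RNA-seq replicates as biological. The labels number them but do not say which Hdac3KO clone has which number, nor that replicates of WT were separate cultures, and p-values measure the spread between these samples.

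Many genes of germ cells and meiosis are held silent in ESCs by overlapping systems. The variant Polycomb complex PRC1.6 is brought to their promoters by the DNA-binding dimer of MGA and MAX, which reads E-boxes, and by E2F6, which reads E2F sites; L3MBTL2 and PCGF6 are the subunits that assemble the complex and link it to the ubiquitin ligase RING1B. Methylation of histone H3 at lysine 9 (H3K9) is laid down by the dimer of EHMT1 (GLP) and EHMT2 (G9a) and by SETDB1, which is recruited by the corepressor TRIM28 (KAP1), and is read by HP1 proteins such as CBX3 (HP1γ).

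The promoters of the germline genes were searched for the letters that the DNA-binding members are known to read. Sequences were taken from RefSeq (GRCm38.p6) as windows from 250 bases before to 50 bases after each annotated start. Both strands were searched for the E-box CACGTG, which is its own reverse complement, and for the E2F site TTCCCGC or its reverse complement GCGGGAA; no match of one overlapped a match of the other in the windows described here. Of 33 germline target genes listed from background knowledge, 29 had a window (Tdrd6, Tex11, Piwil2 and Majin had none). The genes were listed because they are reported as silenced by these repressors or by DNA methylation. Motif shares above those of all genes are therefore not independent evidence that the repressors act there. An E-box was found in 14 of the 29 (48.3%), against 8.09% of all 27025 genes with a window. An E2F site was found in 11 (37.9%), against 5.29% of all genes. Both motifs stood together in 5 of the 29 (17.2%), against 0.611% of all genes, and bases upstream of the start of these 5 are shown because they hold both kinds of motif. Capitals mark an E-box or an E2F site. The E2F site of Stag3 spans the start and that of Slc25a31 lies after it, so neither is in the printed stretch.
Sycp3 promoter (chr10:88459437-88459586, plus strand): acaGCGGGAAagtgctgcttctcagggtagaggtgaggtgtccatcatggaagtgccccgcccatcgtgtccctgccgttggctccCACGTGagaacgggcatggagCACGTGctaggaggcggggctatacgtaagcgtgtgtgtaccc
Ddx4 promoter (chr13:112652311-112652460, minus strand): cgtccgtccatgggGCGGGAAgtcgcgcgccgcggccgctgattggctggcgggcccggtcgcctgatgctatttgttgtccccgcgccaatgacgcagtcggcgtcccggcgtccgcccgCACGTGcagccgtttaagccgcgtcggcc
Hormad1 promoter (chr3:95559527-95559676, plus strand): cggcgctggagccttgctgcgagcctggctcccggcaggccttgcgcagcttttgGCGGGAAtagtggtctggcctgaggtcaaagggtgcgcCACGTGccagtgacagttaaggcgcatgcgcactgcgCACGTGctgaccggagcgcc
Stag3 promoter (chr5:138280329-138280508, plus strand): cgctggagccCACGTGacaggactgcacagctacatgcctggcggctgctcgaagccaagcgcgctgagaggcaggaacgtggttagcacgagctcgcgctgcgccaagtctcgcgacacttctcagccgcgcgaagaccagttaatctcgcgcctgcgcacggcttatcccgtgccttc
Slc25a31 promoter (chr3:40708721-40708870, plus strand): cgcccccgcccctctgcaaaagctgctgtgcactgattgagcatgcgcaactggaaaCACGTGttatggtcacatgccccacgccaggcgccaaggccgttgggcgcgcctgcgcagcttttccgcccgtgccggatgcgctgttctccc
Among the 10 repressors themselves, 2 had an E-box (Max and Ehmt2) and 1 an E2F site (Trim28), and none had both. Stretches that hold these motifs are shown for comparison with the target promoters, again with the motif in capitals. That of Ehmt2 holds 1 of the 3 E-boxes found over the 2 windows of this gene, the one nearest to a start.
Max promoter (chr12:76962234-76962263, minus strand): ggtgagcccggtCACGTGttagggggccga
Ehmt2 promoter (chr17:34898434-34898473, plus strand): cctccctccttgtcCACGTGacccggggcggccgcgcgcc
Trim28 promoter (chr7:13023962-13024001, plus strand): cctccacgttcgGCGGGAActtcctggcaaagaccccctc
A match describes letters in a window and does not show binding there, and its absence from a window says nothing of a factor.

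Total counts ranged from 6940375 to 17125156 per sample, and 30.05% to 31.59% of counts could be assigned to an allele. Hdac3, the deleted gene, was at 41.5 and 46.8 CPM (counts scaled to library size by TMM) in WT at 0 h and at 6.41 and 8.15 CPM in Hdac3KO, a log2 fold change of -2.61 (adjusted p = 0.000391, edgeR quasi-likelihood test). The 10 ESC markers examined, Pou5f1, Sox2 and Nanog among them, had counts in every group, with summed levels of 5733 to 6202 CPM in WT and 6442 to 6774 CPM in Hdac3KO samples. Summed levels of 8 primitive endoderm markers were 52.3 to 73.9 CPM in WT and 80.9 to 103 CPM in Hdac3KO, with Foxa2 at 0 in Hdac3KO at 24 h. Those of 6 primed epiblast markers were 284 to 379 CPM in WT and 177 to 233 CPM in Hdac3KO, and those of 6 two-cell-like markers 10.3 to 13.2 CPM and 0.66 to 7.65 CPM. Summed trophoblast markers (7 genes) lay between 66.3 and 111 CPM in WT and 61.9 and 75.0 CPM in Hdac3KO, and summed fibroblast markers (7 genes) between 44.8 and 65.3 CPM and 31.8 and 44.5 CPM, with 2 to 4 of the 7, such as Col3a1, Postn, Lum and Dcn, at 0 in both samples of a group. Tested singly at 0 h, the ESC markers called were Nanog, Zfp42 and Tdgf1 (2 higher and 1 lower of 10 tested). Those of primitive endoderm were Sox7 and Dab2 (1 higher and 1 lower of 4). Tfap2c (of 5 trophoblast markers) and Dnmt3b and Lef1 (of 5 primed epiblast markers) were called lower. No fibroblast or two-cell-like marker was called, where 6.33% of all genes were called higher and 7.24% lower. The part of these marker shifts in the results below was not tested, and in bulk samples fewer cells of a type and less RNA per cell cannot be told apart.

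All 10 repressors were transcribed in every sample. Per length of transcript (TPM, scaled to exon length and library), Trim28 stood far above the rest in WT at 0 h with 921 and 960 TPM. Next came Max (109 in both samples), Ehmt2 (112 and 102) and Mga (118 and 94.2), whose ranges overlapped, so these neighbours did not differ beyond their spread. They were followed by Cbx3 (87.5 and 88.8 TPM), Setdb1 (80.5 and 77.2) and L3mbtl2 (63.3 and 56.6), none of which overlapped its neighbours. Ehmt1 (54.9 and 49.5 TPM) and Pcgf6 (33.4 and 39.8) were lower, and E2f6, at 9.86 and 10.2 TPM, was the lowest of the 10. Trim28 was first and E2f6 last in all 4 groups. In Hdac3KO at 0 h Cbx3 came next after Max with 104 and 114 TPM, above Ehmt2 (104 and 92.2) with which it only just did not overlap, and L3mbtl2 was at 36.5 and 56.3 TPM, overlapping Ehmt1 and Pcgf6.

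**Figure D1:**
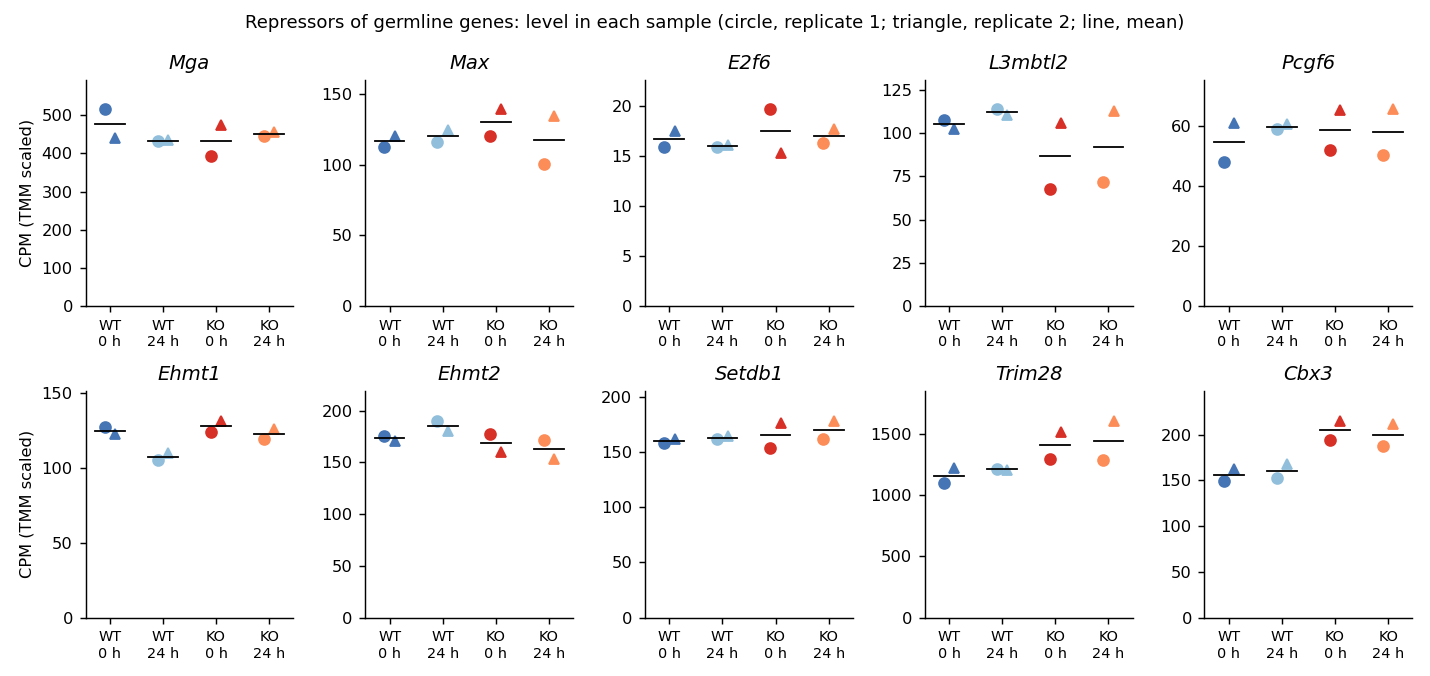
Level of each repressor in TMM-scaled CPM (y axes starting at 0) in the 8 samples, by genotype and hours of DOX; circles are replicate 1, triangles replicate 2, lines the mean of 2 samples. Cbx3 and Trim28 are higher in all 4 Hdac3KO (KO) samples than in the 4 WT samples, and L3mbtl2 is low only in the Hdac3KO samples numbered 1.

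Whether loss of HDAC3 altered these repressors before Xist was induced is answered by Hdac3KO against WT at 0 h. The transcripts of 9 of the 10 did not pass the test, and Cbx3, the H3K9 methylation reader, rose. In this comparison 1795 of 13226 genes (13.6%) were called at an adjusted p under 0.05, so 1 call among 10 genes is near the background. The median log2 fold change of the 10 was 0.06, against 0.00 for all genes tested.

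Of the PRC1.6 subunits, the scaffold Mga (chr2:119897228-119969581, plus strand) was at 516 and 441 CPM in WT and at 393 and 474 CPM in Hdac3KO at 0 h, replicates 1 and 2 in turn. Its partner Max (chr12:76937269-76962201, minus strand) was at 112 and 120 CPM in WT and 120 and 139 CPM in Hdac3KO. The ranges of Mga overlapped between genotypes, and those of Max touched without overlapping (120.1 and 120.4 CPM). E2f6 (chr12:16810963-16839742, plus strand), the repressive E2F without an activation domain, had 15.97 and 17.6 CPM in WT and 19.7 and 15.3 CPM in Hdac3KO. Pcgf6 (chr19:47033617-47050906, minus strand), the PCGF subunit that defines the complex, had 48.0 and 61.0 CPM in WT and 51.8 and 65.2 CPM in Hdac3KO. For both of these subunits the samples of the genotypes overlapped. Log2 fold changes were -0.14 for Mga (95% interval -0.42 to 0.14), 0.16 for Max (-0.09 to 0.41), 0.07 for E2f6 (-0.36 to 0.51) and 0.11 for Pcgf6 (-0.27 to 0.48), with adjusted p between 0.374 and 0.837 (edgeR quasi-likelihood test, Benjamini-Hochberg). The intervals leave room for changes of about that size in either direction, and do not show that levels were equal.

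L3mbtl2 (chr15:81663889-81688315, plus strand), the chromatin-binding MBT-domain subunit, was the member whose Hdac3KO samples disagreed most. It was at 108 and 103 CPM in WT, and at 67.5 CPM in Hdac3KO replicate 1 and 106 CPM in Hdac3KO replicate 2. The low value belonged to 1 Hdac3KO sample, while the other lay inside the WT range. As a group the difference was -0.28 on the log2 scale (95% interval -0.72 to 0.15, adjusted p = 0.368, edgeR). Without Hdac3KO replicate 1 it was 0.02, and without Hdac3KO replicate 2 it was -0.63. Each of these fits held 1 Hdac3KO sample, so the spread between Hdac3KO samples does not enter them.

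None of the 3 H3K9 methyltransferases passed the test at 0 h. Ehmt1 (chr2:24789928-24919614, minus strand) was at 127 and 123 CPM in WT and 124 and 132 CPM in Hdac3KO at 0 h. Its dimer partner Ehmt2 (chr17:34898469-34914052, plus strand) was at 176 and 171 CPM in WT and 178 and 160 CPM in Hdac3KO. Setdb1 (chr3:95323525-95357202, minus strand), the methyltransferase of the TRIM28 pathway, was at 158 and 161 CPM in WT and 154 and 176 CPM in Hdac3KO. For each of these enzymes the Hdac3KO samples lay on both sides of the WT samples or reached into their range. Log2 fold changes were 0.04 for Ehmt1 (95% interval -0.18 to 0.26), -0.03 for Ehmt2 (-0.26 to 0.19) and 0.05 for Setdb1 (-0.19 to 0.29), with adjusted p of 0.834, 0.868 and 0.785 (edgeR).

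Trim28 (chr7:12999114-13031035, plus strand) is the corepressor that KRAB zinc finger proteins bind. It was at 1095 and 1218 CPM in WT and at 1297 and 1513 CPM in Hdac3KO at 0 h. Both Hdac3KO samples were above both WT samples. The log2 fold change of 0.29 (95% interval 0.05 to 0.52) had an unadjusted p of 0.0234 and did not pass after adjustment (adjusted p = 0.107, edgeR), though it passed without a filter on low counts.

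Cbx3 (chr6:51470360-51483704, plus strand) was at 150 and 162 CPM in WT and at 194 and 215 CPM in Hdac3KO, with no overlap. It rose by a factor of 1.31 (log2 fold change 0.39 ± 0.10, SE, n = 2 and 2, adjusted p = 0.0384, edgeR quasi-likelihood test). Cbx3, Trim28 and Max were the 3 members whose genotypes did not overlap at 0 h, a pattern shared by 59.0% of the genes tested. The call for Cbx3 was lost without WT replicate 1 (log2 0.33, adjusted p = 0.301, edgeR) and without WT replicate 2 (log2 0.44, adjusted p = 0.18, edgeR). GENCODE names 8 pseudogenes of Cbx3 in the mouse genome, none of which is among the gene symbols counted. Reads that fit several copies may make the level of Cbx3 less certain, which was not tested.

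At 24 h of DOX the same comparison gave 0 called members, where 12.9% of 13807 genes were called, with 1 member at an unadjusted p under 0.05 and 0 called by DESeq2. Cbx3 was at 153 and 168 CPM in WT and 188 and 212 CPM in Hdac3KO, again without overlap, with a log2 fold change of 0.32 (95% interval 0.09 to 0.55, adjusted p = 0.0685, edgeR). Trim28 was at 1213 and 1206 CPM in WT and 1282 and 1607 CPM in Hdac3KO, with a log2 fold change of 0.26 (95% interval -0.01 to 0.52, adjusted p = 0.189, edgeR). Both genes thus had about the values of 0 h. The absence of a call for either at 24 h depended on the fit: both were called without a filter on low counts (adjusted p = 0.0295 for Cbx3 and 0.0242 for Trim28, edgeR) and with the replicate number as a block (0.00607 and 0.0333, edgeR). L3mbtl2 was at 114 and 110 CPM in WT and again low in Hdac3KO replicate 1 (71.6 CPM) but not in replicate 2 (113 CPM). Ehmt1 was at 105 and 110 CPM in WT and 119 and 126 CPM in Hdac3KO (log2 0.19, adjusted p = 0.186, edgeR). Ehmt2 was at 190 and 180 CPM in WT and 172 and 153 CPM in Hdac3KO (log2 -0.19, adjusted p = 0.22, edgeR). These dimer partners differed from WT in opposite directions, neither past the threshold. Groups did not overlap for 6 of the 10 members (Mga, E2f6, Ehmt1, Ehmt2, Trim28 and Cbx3), as for 56.7% of all genes tested, and log2 fold changes of the remaining members, Mga and E2f6 included, lay between -0.28 and 0.09.

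**Figure D2:**
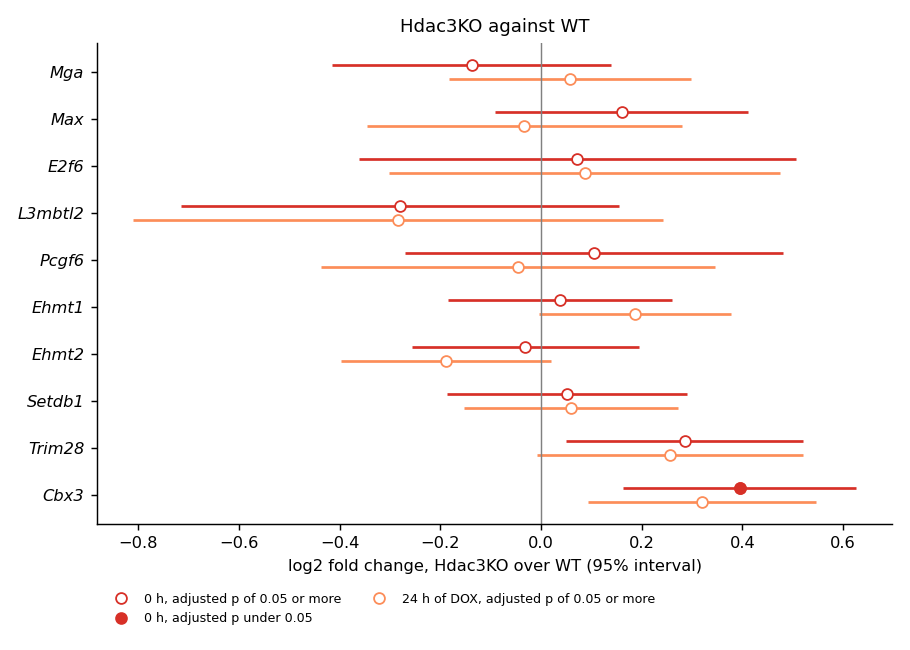
Log2 fold change of each repressor in Hdac3KO over WT at 0 h and after 24 h of DOX, with 95% intervals from the edgeR fits; filled points have an adjusted p under 0.05. Cbx3 at 0 h (0.39) is the one filled point, and the widest intervals belong to L3mbtl2.

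Between 0 h and 24 h of DOX no change was called among the repressors when samples were not paired by replicate number. All samples of 24 h had DOX, so Xist induction, DOX itself and time in culture cannot be told apart. In WT, 24 h against 0 h of DOX called 0 of 10 members and 29 of 13807 genes (0.21%), with 1 member at an unadjusted p under 0.05 and 0 members called by DESeq2 or limma. That member was Ehmt1, which went from 127 and 123 CPM to 105 and 110 CPM, without overlap, a log2 change of -0.21 (95% interval -0.40 to -0.02, adjusted p = 0.621, edgeR). Mga went from 516 and 441 CPM to 432 and 434 CPM (log2 -0.14, adjusted p = 0.887, edgeR), so both of its samples after DOX were below both before. Ehmt2 (176 and 171 to 190 and 180 CPM), L3mbtl2 (108 and 103 to 114 and 110 CPM) and Setdb1 (158 and 161 to 162 and 164 CPM) separated upward instead. The share of all genes that separate in this way with DOX was not computed. Members other than Ehmt1 and Mga had log2 changes between -0.06 and 0.13. In Hdac3KO, DOX called 0 of 10 members and 3 of 13807 genes (0.0217%), with 0 members at an unadjusted p under 0.05 and 0 called by DESeq2 or limma, and log2 changes ran from -0.15 (Max) to 0.09 (L3mbtl2). The difference between the DOX responses of the genotypes was called for 0 of 13807 genes (0.0% of those tested), 261 at an unadjusted p under 0.05 and 1 called by DESeq2. Among the members it was largest in size for Mga (log2 0.20, 95% interval -0.14 to 0.54) and Max (log2 -0.19, 95% interval -0.63 to 0.25), neither at an unadjusted p under 0.05. With samples paired by replicate number within each genotype, DOX called 1531 of 13807 genes in WT, 281 in Hdac3KO and 289 for the difference between them. Beside those 1531 genes, 2 of 10 members were then called in WT, both lower after DOX. These were Ehmt1 (log2 -0.22, adjusted p = 0.0101, edgeR) and Mga (-0.14, adjusted p = 0.0448, edgeR). In Hdac3KO and for the difference 0 members were called.

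Because the Hdac3KO samples were separate clones, each Hdac3KO replicate number was also set against the 4 WT samples over both times, with time as a covariate in one edgeR fit. This comparison was added after the values were seen. It takes the samples with the same number at 0 h and 24 h as the same clone: the median share of B6 reads over 307 genes of chromosome 16 was 0.333 in both samples numbered 1 and 0.5 and 0.493 in those numbered 2, against 0.332 to 0.341 in WT, and none of the 10 members is on chromosome 16. Samples of a clone at 2 times are not separate clones, so these tests describe the 2 clones and not the knockout, and many genes were called: 39.8% of 13807 for replicate 1, 40.4% for replicate 2 and 16.8% for the difference between them.

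L3mbtl2 differed most between the clones. In the samples numbered 1 it differed from the WT mean by -35.8% at 0 h and by -36.1% at 24 h, a log2 fold change of -0.64 (95% interval -0.78 to -0.50, adjusted p = 3.75e-07, edgeR). In the samples numbered 2 the log2 fold change was 0.01 (-0.13 to 0.14, adjusted p = 0.941, edgeR). The difference between the clones was 0.65 (0.49 to 0.81, adjusted p = 1.29e-05, edgeR), with every sample left out in turn between 0.65 and 0.66. Of the 10 nearest tested genes on each side of L3mbtl2 on chromosome 15, 0 of 20 were as low in the samples numbered 1, with a median of 0.06 and a lowest value of -0.49, and the median of the 526 genes tested on the chromosome was -0.02. Counts of both alleles were lower: B6 counts of L3mbtl2 were at 19.6 to 24.5 CPM in WT and 12.2 and 12.6 CPM in the samples numbered 1, and Cast counts at 14.4 to 16.5 CPM and 10.5 and 11.1 CPM.

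Cbx3 was above WT in both clones, with log2 fold changes of 0.27 (95% interval 0.14 to 0.41, adjusted p = 0.00191, edgeR) for replicate 1 and 0.44 (0.30 to 0.57, adjusted p = 2.07e-05, edgeR) for replicate 2. It was the one member called higher in each clone. Trim28 was called in replicate 2 only, at 0.40 (0.28 to 0.52, adjusted p = 1.88e-05, edgeR), against 0.12 (0.00 to 0.25, adjusted p = 0.0955, edgeR) in replicate 1, and the difference of 0.27 passed the test (adjusted p = 0.00866, edgeR). Max and Pcgf6 were both on the low side of WT in replicate 1 (log2 -0.09 and -0.15) and on the high side in replicate 2 (0.21, adjusted p = 0.0275, and 0.20, adjusted p = 0.0933, edgeR). Their differences between the clones were 0.30 (0.13 to 0.48, adjusted p = 0.0184, edgeR) and 0.35 (0.13 to 0.57, adjusted p = 0.0279, edgeR). Mga (-0.12 and 0.03) and Setdb1, outside PRC1.6 (-0.03 and 0.14), changed side in the same way. The PRC1.6 subunit E2f6 was higher in replicate 1 (0.14) than in replicate 2 (0.01). Ehmt2 was called lower in replicate 2 (log2 -0.19, adjusted p = 0.0226, edgeR) and not in replicate 1 (-0.03), with a difference of -0.16 that did not pass (adjusted p = 0.148, edgeR). Mga, E2f6, Ehmt1 and Setdb1 were called in neither clone. The difference for Trim28 (0.23 to 0.32) and that for Max (0.18 to 0.45) lost its call without Hdac3KO replicate 2 of 0 h or either Hdac3KO sample of 24 h, and that for Pcgf6 (0.29 to 0.42) without any 1 of the 4 Hdac3KO samples. Against WT, the call for Cbx3 in replicate 1 was lost without its 0 h sample (log2 0.24, adjusted p = 0.0582, edgeR), that for Max in replicate 2 without either of its samples (adjusted p = 0.184 and 0.186, edgeR) and that for Ehmt2 in replicate 2 without either of its samples or WT replicate 1 of 24 h (adjusted p = 0.0788, 0.318 and 0.078, edgeR). In all, 2 of 10 members were called in replicate 1, 4 of 10 in replicate 2 and 4 of 10 between the clones, where the shares of all genes are those given above.

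**Figure D3:**
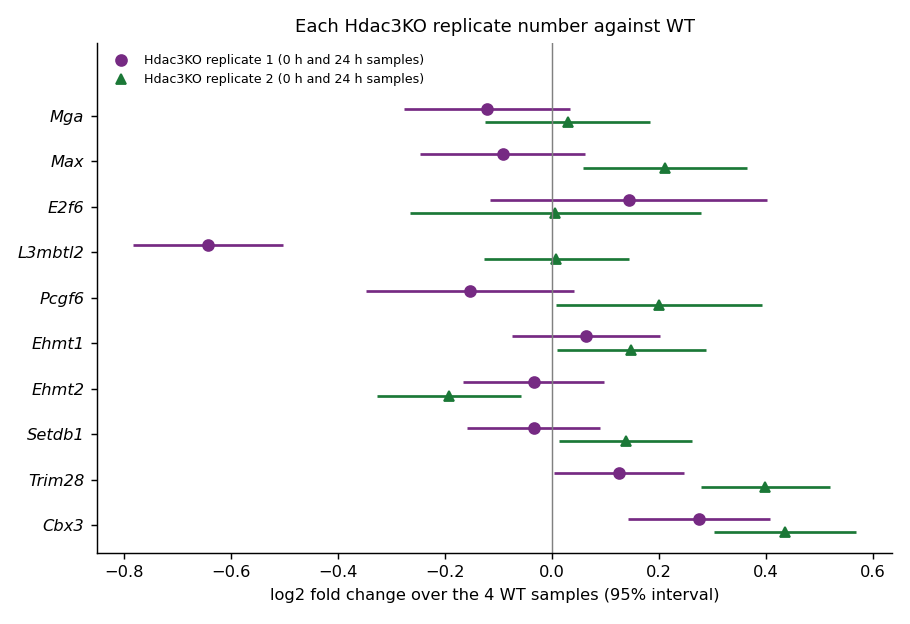
Log2 fold change of each repressor over the 4 WT samples for the Hdac3KO samples numbered 1 (circles) and 2 (triangles), 0 h and 24 h together, with 95% intervals. L3mbtl2 is at -0.64 for the samples numbered 1 and at 0.01 for those numbered 2.

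Reads that cover a variant between the genomes give the share of the B6 allele, or d-score, B6 over B6 plus Cast. Allelic reads per sample ranged from 3865 to 9839 for Trim28 and from 673 to 1545 for Mga, but only from 12 to 40 for E2f6, whose d-scores of 0.353 to 0.654 have exact 95% binomial intervals that all include 0.5 and cover counting error only. Across 9148 autosomal genes the median d-score was 0.501 to 0.507 per sample. In WT at 0 h, 5 of 10 members differed from equal alleles, where 31.0% of the 9148 genes did.

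Ehmt2 leaned most to the Cast allele, with d-scores of 0.365 and 0.442 in WT at 0 h and 0.406 to 0.458 over the other 6 samples (log2 B6 over Cast -0.57, adjusted p = 0.00124, edgeR). L3mbtl2 leaned to B6, with d-scores of 0.574 and 0.575 in WT at 0 h (log2 0.43, adjusted p = 0.00713, edgeR). No d-score of Ehmt2 reached 0.5, as for Cbx3, Trim28 and Mga, and none of L3mbtl2 fell below it. Cbx3 (0.434 and 0.451), Trim28 (0.458 and 0.452) and Mga (0.479 and 0.431) leaned to Cast, with log2 ratios of -0.33 (adjusted p = 0.00849), -0.26 (adjusted p = 2.43e-05) and -0.25 (adjusted p = 0.0344), all by edgeR. Trim28 kept its d-score between 0.441 and 0.458 in all 8 samples, also in the Hdac3KO samples where its level was higher. Calls for L3mbtl2 and Cbx3 were lost without either WT sample of 0 h, that for Ehmt2 without replicate 1 (log2 -0.34) and that for Mga without replicate 2 (log2 -0.12), and a preference of the alignment for B6 or Cast reads at single genes was not tested.

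The allele ratio of 0 of 10 members was called as different between Hdac3KO and WT at 0 h, where 59 of 9148 genes (0.645%) were, and 0 members had an unadjusted p under 0.05 (limma also called 0). The log2 difference in ratio of the members other than E2f6 lay between -0.31 (L3mbtl2) and 0.32 (Max), and that of E2f6 was 0.23 with a 95% interval from -1.18 to 1.64. DOX changed the ratio of 0 members in WT (0.0% of 9148 genes called, 285 at an unadjusted p under 0.05) and of 0 members in Hdac3KO (0.0%, 264 genes at an unadjusted p under 0.05), with 0 genes called by limma in either. Max had the lowest p among them, with d-scores of 0.499 and 0.474 in WT at 0 h and 0.633 and 0.527 at 24 h (log2 0.58, 95% interval 0.15 to 1.02, adjusted p = 1, edgeR). Its d-scores in Hdac3KO were 0.534 to 0.566, inside the spread of WT.

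**Figure D4:**
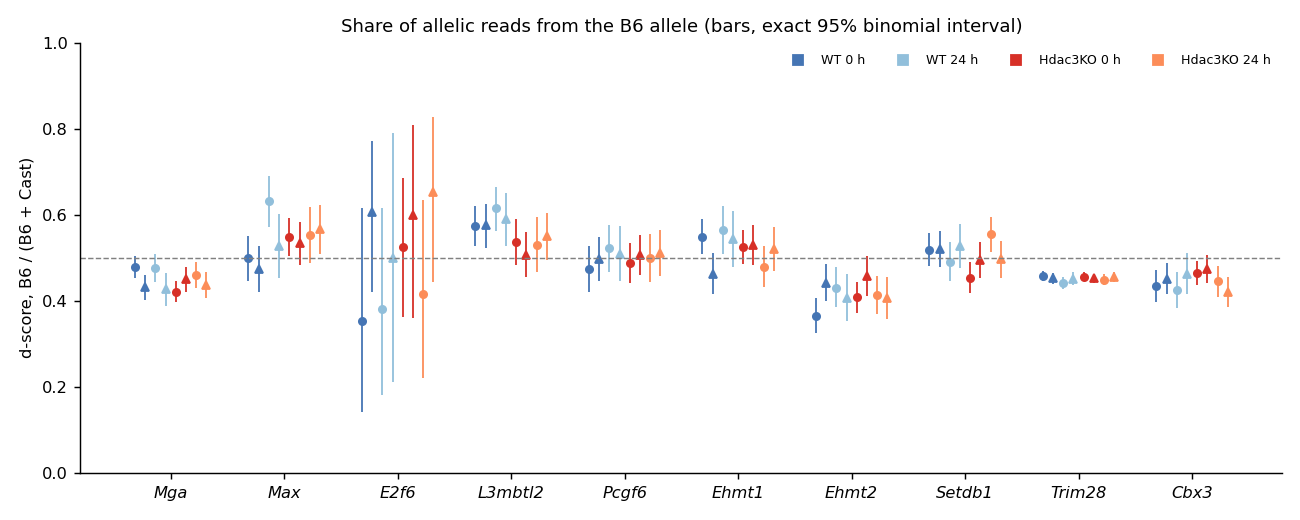
Share of allelic reads from the B6 allele (d-score, y axis from 0 to 1) for each repressor in the 8 samples, coloured by group, with exact 95% binomial intervals; the dashed line is equal alleles. E2f6 has the widest intervals and Trim28 the narrowest (d-scores 0.441 to 0.458). All values of Ehmt2, Mga, Trim28 and Cbx3 lie below the line.

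The genes that work with the 10 repressors were taken from lists of known function. Of 14 further subunits of PRC1.6 and other PRC1 complexes, 3 rose and 1 fell at 0 h, where 6.33% of all genes were called higher and 7.24% lower, and the median log2 fold change was 0.16. Wdr5, which PRC1.6 shares with H3K4 methyltransferases, rose from 186 and 196 CPM to 251 and 270 CPM (log2 0.45, adjusted p = 0.0179, edgeR). Pcgf2 (log2 0.38) and Pcgf1 (0.91) rose and Bmi1 fell by 1.04 on the log2 scale, so the PCGF subunits of other PRC1 complexes moved in both directions. Other subunits of PRC1.6 did not pass: Ring1 (log2 0.03), Rnf2 (0.16), Rybp (0.28, adjusted p = 0.0683, edgeR), Yaf2 (0.28), Tfdp1 (-0.12), Hdac1 (0.15) and Hdac2 (-0.16). At 24 h, 1 of the 14 rose (Wdr5, log2 0.41) and 1 fell (Bmi1, log2 -0.79), where 6.16% and 6.78% of all genes were called higher and lower.

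The lists that follow have the same background: 6.33% of all genes were called higher and 7.24% lower at 0 h. At 24 h these shares were 6.16% and 6.78%. Among 9 tested partners and rivals of MAX, 2 rose and 0 fell at 0 h (median log2 -0.17): Mycl from 18.99 and 18.2 CPM to 40.1 and 35.5 CPM (log2 1.03, adjusted p = 0.00486, edgeR) and Mxi1 (log2 0.43). At 24 h Mycl rose again (0.74) and Mycn (-0.44), Mnt (-0.40) and Mlxip (-0.55) fell. Of 9 other E2F and DP genes 0 rose and 2 fell at 0 h (median -0.12), the atypical repressors E2f8 (log2 -0.64, adjusted p = 0.0141, edgeR) and E2f7 (-0.55), and the same pair fell at 24 h (-0.73 and -0.49). Of 19 tested partners and readers of H3K9 methylation 5 rose and 0 fell at 0 h (median -0.02). These were Suv39h1, a methyltransferase of pericentric heterochromatin (log2 0.70), Zfp57, which guards imprinted regions with TRIM28 (0.67), Cbx1, the HP1β paralog of Cbx3 (0.48), Uhrf1, which ties DNA methylation to H3K9 (0.44), and Mphosph8 of the HUSH complex (0.44, named after its values were seen). At 24 h 3 were called higher in Hdac3KO than in WT, Atrx (0.49), Uhrf1 (0.36) and Cbx1 (0.32). X-linked Atrx was not called at 0 h, with 1312 and 1200 CPM in WT and 1353 and 1342 CPM in Hdac3KO, and was at 884 and 877 CPM in WT and 1276 and 1196 CPM in Hdac3KO at 24 h. It was the 1 gene of this list called lower with DOX in WT (log2 -0.51), so its difference at 24 h came with a lower WT level. Of 8 H3K9 demethylases, 3 rose and 1 fell at 0 h (median 0.26): Kdm3b (log2 0.41), Kdm1a (0.36) and Jmjd1c (0.34) rose and Kdm4c fell by 0.58. At 24 h Phf8 (0.42) and Kdm3b (0.31) were called higher in Hdac3KO than in WT and Kdm4c lower (-0.54). Phf8, also X-linked, was at 140 and 166 CPM in WT at 0 h and 116 and 132 CPM at 24 h, and at 172 and 183 CPM and then 155 and 176 CPM in Hdac3KO. With either WT sample of 0 h left out, 0 genes of each of these 5 lists were called at 0 h. With 1 sample left out, the number called at 24 h ranged from 0 to 4 for the PRC1 subunits, 0 to 4 for the MAX network, 0 to 2 for the E2F and DP genes, 1 to 5 for the H3K9 partners and readers and 0 to 3 for the demethylases, and without either WT sample of 24 h none of the PRC1, MAX or demethylase genes was called.

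The germline target genes were listed from background knowledge as silenced by these repressors or by DNA methylation. Which of these acts on each gene was not tested. The study describes meiosis genes raised in Hdac3KO cells as usually repressed by DNA methylation. It assigns their repression in these hypomethylated ESCs to HDAC3. The list of germline target genes had the highest share of calls among the 6 lists. At 0 h 21 of 31 tested genes rose and 0 fell, with a median log2 fold change of 1.51, and at 24 h 19 rose and 0 fell, with a median of 1.84, against 0.00 and 0.01 for all genes tested. Of all genes tested 6.33% were called higher at 0 h and 6.16% at 24 h. Genes of this kind were known to rise in these cells when the list was drawn up, so the counts are not independent evidence of a direction. The filter adds to this, since it asks for more than 1 TPM in at least 2 of the samples fitted. At 0 h a gene near silent in WT, such as Asz1, could enter only through Hdac3KO samples, where it is high. Genes low in both genotypes, such as Tdrd1 and Tdrd6, were not tested. The counts and medians therefore lean upward. Brdt, a testis bromodomain gene, rose from 1.06 and 1.37 CPM to 25.3 and 23.0 CPM at 0 h (log2 4.31, adjusted p = 0.000311, edgeR). Asz1, a gene of the piRNA pathway, had 0 and 4 reads in WT and 59 and 154 reads in Hdac3KO. Slc25a31 (log2 3.32) and Sycp1 of the synaptonemal complex (3.09) were the next by size among those that rose. Without either WT sample of 0 h 10 of the genes were called, and without either Hdac3KO sample 18.

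Set beside the promoter motifs, all 5 genes with both an E-box and an E2F site rose at 0 h (Sycp3, Ddx4, Hormad1, Stag3 and Slc25a31, named for their motifs, median log2 1.92). Of the tested genes with either motif 13 of 19 rose (median 1.48), and of those with neither 7 of 9 rose (median 2.02), Dazl, Sycp2 and Asz1 among them. Of all genes tested 6.33% were called higher. The filter on low expression leans these counts by motif upward too. Hsf2bp and Rpl10l, which hold an E2F site, were at log2 -0.24 and 0.17 and did not pass. In the same samples 9 of the 10 repressors did not pass the test, and the levels are of transcripts, with protein and binding at promoters not measured.

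**Figure D5:**
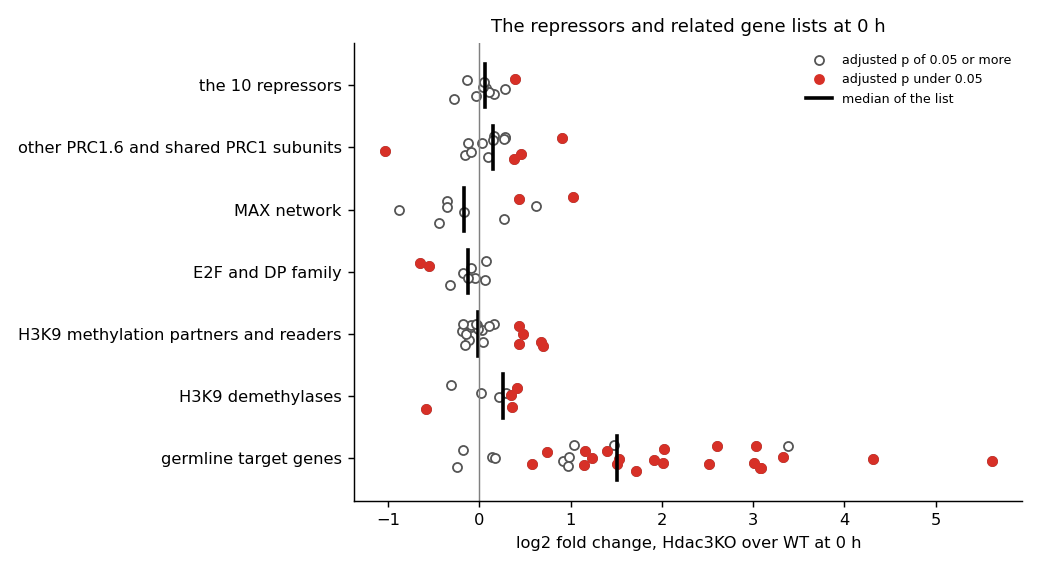
Log2 fold change in Hdac3KO over WT at 0 h for each tested gene of the 10 repressors and of 6 related lists; filled red points have an adjusted p under 0.05 (edgeR) and black lines are medians. The germline target genes have a median of 1.51 and the 10 repressors of 0.06.

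For the repressors other than E2f6 the gene with the most similar profile was sought among 8806 genes with a mean of at least 10 CPM, by Pearson correlation of log2 CPM over the 8 samples. The samples fall into 4 groups and the best of so many genes is high by construction, so the values are a description. L3mbtl2 was closest to Klf12 (r = 0.988), Cbx3 to Utp6 (0.994) and Trim28 to Vps52 (0.990). The PRC1.6 subunits Mga, Max and Pcgf6 were closest to Csnk1g3 (0.974), Nsun2 (0.969) and Thap11 (0.981). The closest genes of Ehmt1, Ehmt2 and Setdb1 were Thoc2 (0.982), Tcf3 (0.969) and Eps8 (0.973), and none of these closest genes was itself a member.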

How the data were processed

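RNA-seq was carried out on 8 samples of TX1072 cells, WT and Hdac3KO at 0 h and 24 h of DOX, with 2 samples per group (Ovation Mouse RNA-seq libraries, paired-end, stranded). Per the study's methods and the submitters' processing notes, rRNA reads were removed, reads were aligned to mm10 with TopHat2 2.1.0 and the authors deposited raw counts per gene from featureCounts 1.5.1, in total and for each allele. The d-score, a fraction deposited by the authors, was recomputed from the allelic counts as B6 over B6 plus Cast. Genes above 1 TPM in at least 2 of the samples fitted (GENCODE M21 exon lengths) were tested with TMM scaling and the edgeR 4.0.16 quasi-likelihood test (R 4.3.3), with Benjamini-Hochberg adjustment over all genes tested and a threshold of 0.05. Fits at 0 h held the 4 samples of that time, and the other fits all 8. Allele ratios were tested by edgeR on B6 and Cast counts of autosomal genes with at least 10 allelic reads in every sample. Alternatives were RLE size factors, DESeq2 1.42.0, voom with limma 3.58.1, no filter, omission of Rn45s and chromosome 16, a replicate block and omission of each sample. Fits were tested on simulated data. Tables and plots used Python 3.11.15, pandas 2.3.3, SciPy 1.17.1 and matplotlib 3.10.9. Depth was 6940375 to 17125156 counts per sample, and intervals of d-scores cover counting error only. Replicates of a group differed by more than sampling noise (chi-square per degree of freedom 3.94 to 12.9).

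The 10 repressors are named in every comparison. Of each related list, genes called are named up to the 4 largest changes in each direction, with the partners of PRC1.6 (Ring1, Rnf2, Rybp, Yaf2, Tfdp1, Wdr5, Hdac1 and Hdac2) whether called or not. The repressors and lists were chosen with earlier results of these data known. Positions are GRCm38 (mm10) from GENCODE M21, and promoter sequences are RefSeq (GRCm38.p6). The gene with the profile most like that of E2f6 is not reported here.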

Additional observations from a re-analysis of the deposited data

Results flagged for a closer look

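The Hdac3KO effects of 4 repressors differed between the samples numbered 1 and those numbered 2, by the edgeR test of the difference itself over both times. The same test called 16.8% of all 13807 genes. L3mbtl2 differed by 0.65 on the log2 scale (-0.64 against 0.01), Pcgf6 by 0.35 (-0.15 against 0.20), Max by 0.30 (-0.09 against 0.21) and Trim28 by 0.27 (0.12 against 0.40), each the effect in replicate 2 minus that in replicate 1. The call for L3mbtl2 held without each of the 8 samples in turn, and those for the other 3 did not.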

How the results depend on the processing

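The rise of Cbx3 at 0 h passed with RLE size factors, DESeq2, limma, no filter, Rn45s and chromosome 16 left out, all 8 samples in one fit and the replicate block, and was lost without either WT sample. Without a filter on low counts the genes called were 3107 at 0 h, 2939 at 24 h, 275 with DOX in WT, 36 with DOX in Hdac3KO and 6 for the interaction, and 2 members (Trim28 and Cbx3) were called at each of 0 h and 24 h. With DESeq2, DOX called 114 genes in WT and 16 in Hdac3KO, and the interaction 1. With limma DOX called 12 genes in WT, and without Rn45s and chromosome 16 it called 58. Leaving out 1 sample gave 326 to 3361 genes and 0 to 2 members at 0 h, 440 to 1980 genes and 0 to 1 members at 24 h, 2 to 84 genes with DOX in WT, 2 to 2 in Hdac3KO, 11 to 106 for allele ratios in Hdac3KO against WT, and 1505 to 2946 genes and 2 to 5 members against equal alleles. Directions turned when a sample was left out for log2 fold changes at 0 h of E2f6 (-0.12 to 0.24), L3mbtl2 (-0.63 to 0.0157), Pcgf6 (-0.0634 to 0.28), Ehmt1 (-0.0023 to 0.085), Ehmt2 (-0.11 to 0.0463) and Setdb1 (-0.0474 to 0.15), at 24 h of Max (-0.25 to 0.16), L3mbtl2 (-0.65 to 0.01), Pcgf6 (-0.25 to 0.13) and Setdb1 (-0.0119 to 0.13), for the interaction of Max (-0.41 to 0.0043), and for Hdac3KO replicate 1 of Max (-0.24 to 0.0348) and Ehmt2 (-0.0837 to 0.0126) and replicate 2 of L3mbtl2 (-0.0078 to 0.025). None of these passed the test in the full set of samples, and the cause was not tested. E2f6, with 12 to 40 allelic reads, limits what its d-score can show.

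Replicate numbers are shared by WT and Hdac3KO in the labels, which do not say that they pair samples. Deviations of samples with the same number correlated at 0.206 between genotypes at 0 h and 0.211 at 24 h, and at 0.301 between times in WT and 0.658 in Hdac3KO (13807 genes). With the replicate block the genes called were 2944 at 0 h, 3379 at 24 h, 190 with DOX in WT, 13 with DOX in Hdac3KO, 102 for allele ratios in Hdac3KO against WT and 1 for allele ratios with DOX in Hdac3KO. The members called under the block were 2 at 0 h (Cbx3, and Trim28 with adjusted p = 0.0142 by edgeR) and 2 at 24 h. With a replicate block within each genotype DOX called 1531 of 13807 genes in WT, 281 in Hdac3KO and 289 for the interaction. Beside those 1531 genes, 2 of 10 members were called in WT, Ehmt1 (log2 -0.22, adjusted p = 0.0101, edgeR) and Mga (-0.14, adjusted p = 0.0448, edgeR).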
